A study of Mus musculus with 20 samples.

Results

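Dorsal epidermis of mice lacking Grhl3 in the epidermis was compared with wild-type epidermis 4 days after wax stripping, a physical injury in which wax tape pulls the outer layers off shaved skin. The comparison rests on 4 of the 20 arrays of the series, chosen by their labels: 2 from Grhl3 WT and 2 from Grhl3 cKO (conditional knockout) mice, each a separate biological replicate in the labels. All 4 are from male C57B6 mice, and the labels write Krt14cre beside both genotypes, so the driver of the recombination is named for the controls too. The keratin 14 promoter is active in basal keratinocytes, in intact as in injured skin. The age of the mice is not given in the sources used here, and untouched skin of the wax experiment was not analysed here. The other 16 arrays come from the same 2 genotypes in an imiquimod experiment: an unaffected and an injured area on day 4, from mice labelled female, and the same areas during recovery on day 8, from mice labelled male, with 2 arrays per genotype and area. Imiquimod cream is an immune stimulant that produces psoriasis-like inflammation.

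Grhl3 is a transcription factor of the Grainyhead-like family. It acts in the terminal differentiation of keratinocytes, in the formation of the skin barrier and in the closure of wounds and of the neural tube. The epidermis answers a breached barrier by a programme of its own, in which keratinocytes divide more, switch on keratins and antimicrobial proteins that resting skin barely makes, and turn down parts of normal differentiation. Psoriasis-like inflammation drives much of the same programme through immune cytokines.

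Values are given by probe set, the group of array probes that reads 1 transcript, and no gene is named. A single symbol is listed for 21789 of the 35556 IDs, but the signals do not follow the symbols. Ranked by mean signal, the 205 probe sets with a ribosomal protein symbol, a class all cells express strongly, had their median at percentile 54.6. The 1035 with an olfactory receptor symbol, a class that skin hardly uses, stood no lower than percentile 52.2. The median correlation between probe sets sharing a symbol was 0.11, and between random ones 0.02. The IDs printed here therefore mark entries of the deposited table, and may not be the probe sets whose signal those entries hold. The level of Grhl3 itself and the markers of epidermis and of immune cells could therefore not be read, and the labelled genotype and tissue have no check from expression. As the epidermis is a mixture of cells, more cells of a type and more RNA per cell cannot be told apart.

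The arrays were alike in overall brightness, with a median signal per array between 169 and 200 intensity units and between 183 and 188 in the 4 wax arrays. In 5 probe sets the imiquimod day 4 arrays (labelled female) and the unaffected recovery arrays (labelled male) differed by 3.67 to 6.83 on the log2 scale. All 4 wax arrays lay on the male side in all 5, as labelled, and the 4 injured recovery arrays, labelled male, lay on the female side.

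After wax stripping the 2 genotypes were close over most of the array, and the differences that passed the test were mostly rises in cKO skin. Of 26310 probe sets tested, 51 were higher and 20 were lower in cKO than in WT skin (limma fitted over all 20 arrays, Benjamini-Hochberg adjusted p under 0.05, referred to below as called). These are 0.194% and 0.0760% of the probe sets tested, 0.270% together. The rises were also the larger changes: 43 of the 51 (0.163% of all tested) were at least 2-fold on the log2(intensity + 16) scale, against 8 of the 20 falls (0.0304%). Their median log2 differences were 1.90 for the rises and -0.92 for the falls, and the median over all probe sets was 0.01. At an unadjusted p under 0.05 there were 1813 probe sets (6.89%). A stricter adjusted threshold of 0.01 left 33 rises and 4 falls, and a looser one of 0.1 gave 68 and 37.

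**Figure D1:**
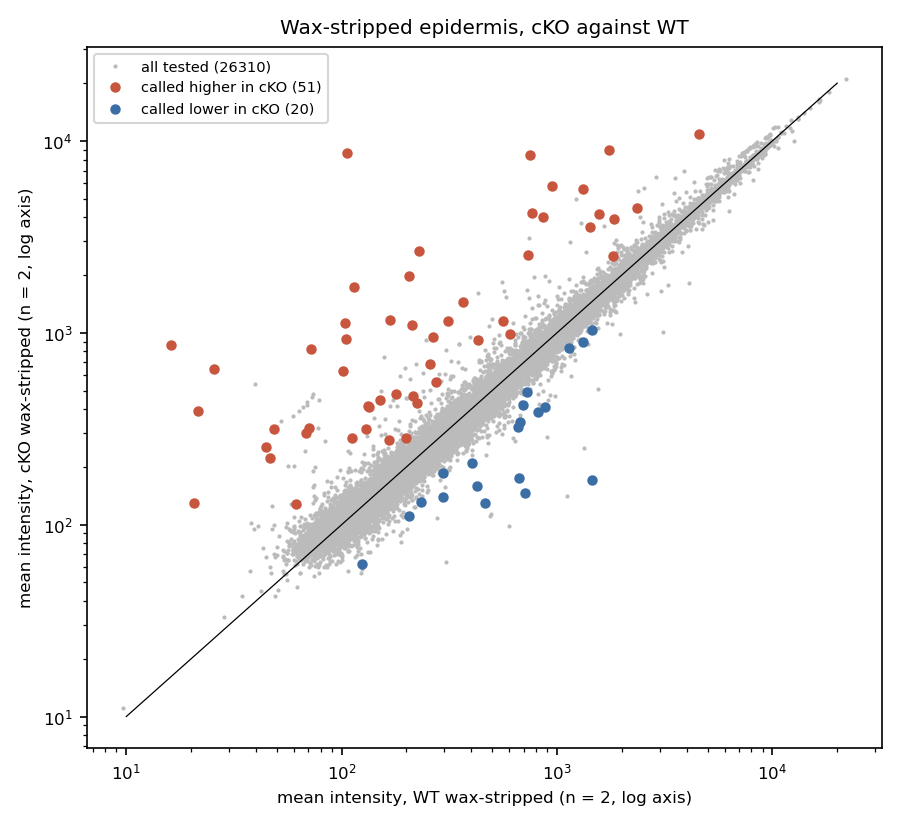
Mean intensity of each probe set in WT (horizontal) and cKO (vertical) wax-stripped epidermis, both on log axes, with the line of equality. Grey points are the 26310 probe sets tested, and the 51 called higher in cKO (red) reach farther from the line than the 20 called lower (blue).

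The largest rise was in probe set 10562667. It read 122 and 88.2 intensity units in the 2 WT arrays and 7863 and 9434 in the 2 cKO arrays, 82.1 times higher by the means. The log2 difference was 6.17 ± 0.44 (limma SE, adjusted p = 2.08e-05). The WT arrays were no higher than unaffected skin, where the 8 arrays lay between 100 and 151. Injured recovery skin read between 4880 and 14072 and injured imiquimod skin between 13818 and 49782. The cKO arrays after wax lay inside the range of the former and below all arrays of the latter, and the WT arrays lay far below both.

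The second largest rise, in 10486425, had the same form at a lower level. It read 18.7 and 13.5 in WT and 786 and 936 in cKO skin (log2 difference 4.77 ± 0.21, limma adjusted p = 1.37e-07). Unaffected arrays did not exceed 29.4. Here the cKO arrays stopped short of injured skin, whose lowest array read 2100.

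The third to sixth largest rises reached or came close to the range of all 8 injured arrays, imiquimod and recovery pooled, in cKO skin after wax and not in WT skin. The third read 21.5 and 29.4 in WT skin, inside the unaffected range, and 948 and 345 in cKO skin, inside the injured range, with the first cKO array far above the second. The fourth read 87.6 and 140 in WT and 2140 and 1311 in cKO skin, of which the first lay within the injured range and the second below its lowest array of 2058. The fifth read 661 and 843 in WT and 8859 and 8064 in cKO skin, inside the range of injured recovery skin (7322 to 9632) and below that of injured imiquimod skin (10065 to 10708). In the last 3 of these 4 the WT arrays exceeded all unaffected arrays and stayed below all injured ones. The sixth read 217 and 238 in WT and 2906 and 2420 in cKO skin, on either side of the lowest injured array at 2484. The genotypes did not overlap after wax in any of them, and the log2 differences were 3.84 ± 0.48, 3.73 ± 0.58, 3.47 ± 0.37 and 3.46 ± 0.45 (limma SE, adjusted p = 0.00214, 0.0118, 0.000462 and 0.00272). With a pseudocount of 1 in place of 16 the third, the fourth and the sixth were not called (limma adjusted p = 0.0892, 0.275 and 0.13), and the fourth was called in 1 of the 4 fits that left out a wax array.

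The seventh and eighth were higher in cKO than in WT mice in injured recovery skin as well. The seventh read 25.9 and 17.2 in WT and 467 and 312 in cKO skin after wax (log2 difference 3.42 ± 0.27). In injured recovery skin it read 306 and 148 in WT and 1327 and 981 in cKO mice, a log2 difference of 2.33 (limma adjusted p = 0.00117). The eighth read 100.1 and 106 in WT and 945 and 1307 in cKO skin after wax (log2 difference 3.24 ± 0.34). In injured recovery skin its log2 difference was 2.34 (limma adjusted p = 0.00469) and in injured imiquimod skin 2.31 (limma adjusted p = 0.0227). The third largest rise also differed in injured imiquimod skin, by 2.79 (limma adjusted p = 0.0439). In unaffected skin of both genotypes the seventh did not exceed 23.2 and the eighth did not exceed 173.

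**Figure D2:**
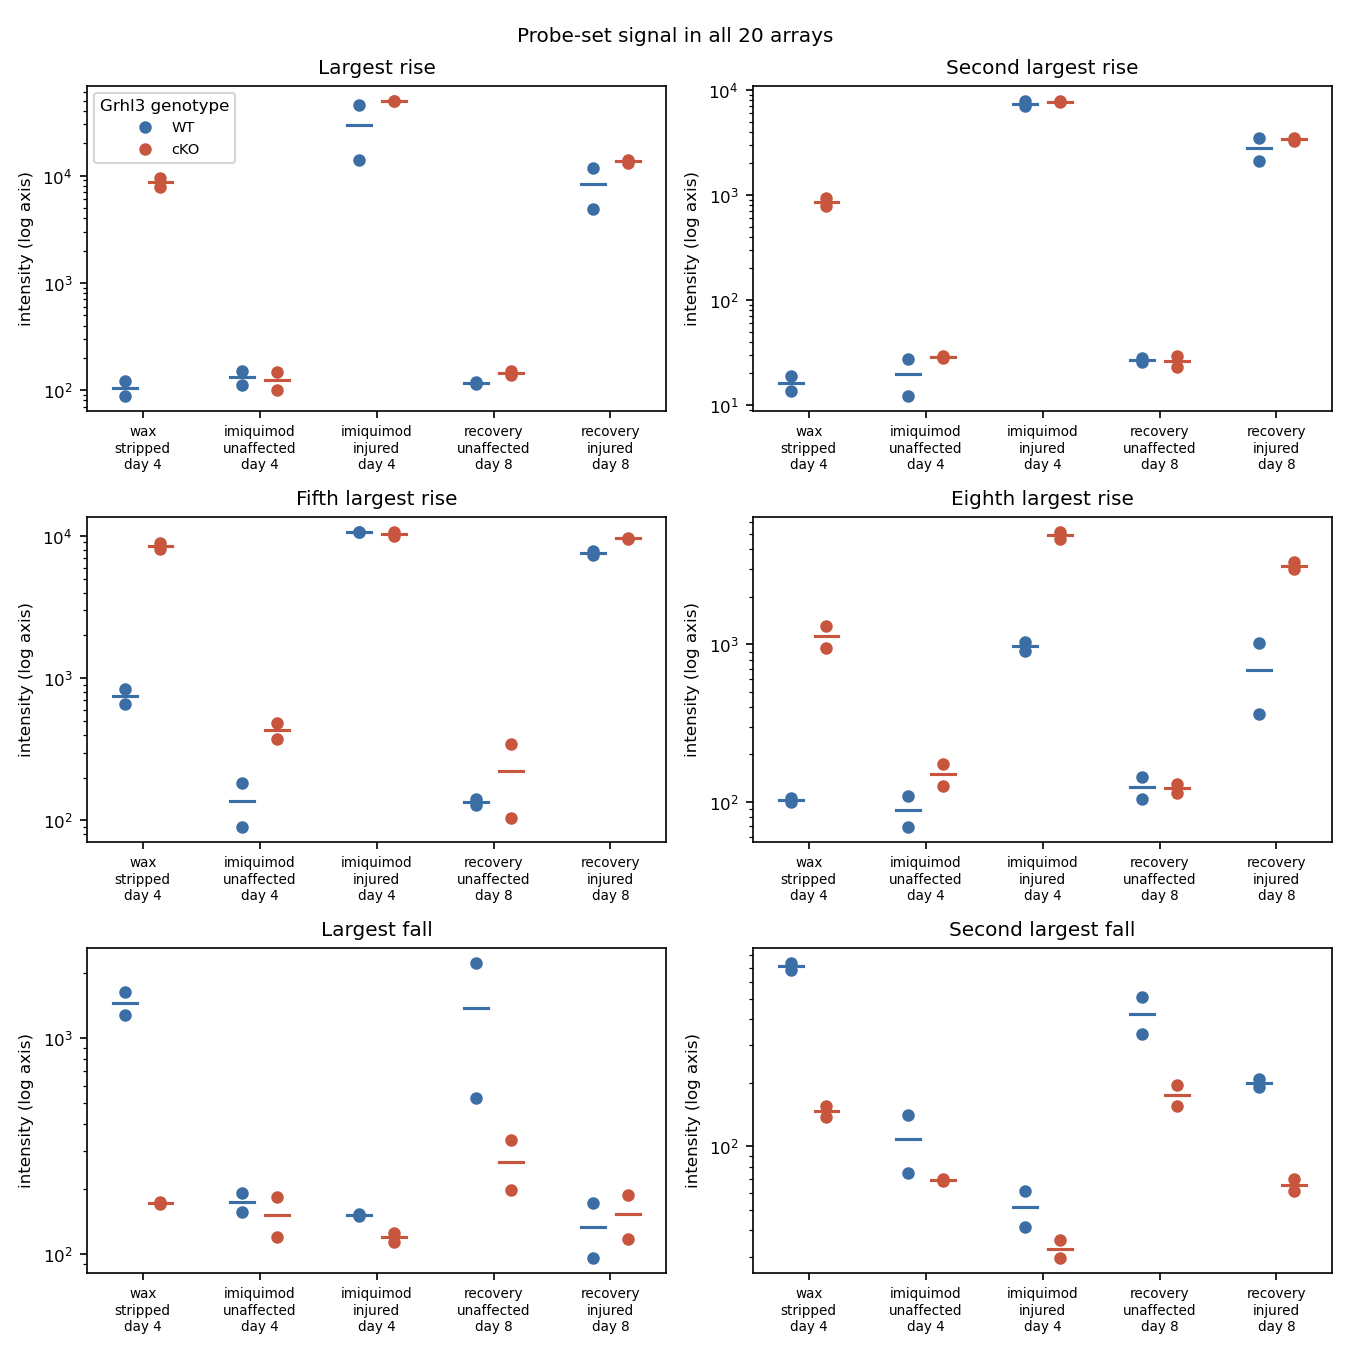
Intensity (log axis) of 6 probe sets in all 20 arrays, WT in blue and cKO in red, a point per array and a line at the mean of 2. In the 4 rises the wax-stripped cKO arrays stand with or towards the injured arrays and the wax-stripped WT arrays with or nearer the unaffected ones; in the 2 falls the wax-stripped WT arrays are high.

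The 51 rises as a group were also probe sets with higher signal after imiquimod. All 51 were called higher in injured than in unaffected imiquimod skin of WT mice, where 16.1% of all probe sets tested were called higher, and 44 of them by at least 2-fold (2.33%). All 51 were also called higher by imiquimod in cKO mice, where the background was 17.7%. Their median log2 response was 3.13 in WT and 2.62 in cKO skin, and the median over all probe sets was 0.01 and 0.00. The imiquimod arrays gave no mean to the wax difference, but they entered the estimate of spread and the filter on mean signal, so these counts are not independent of the calls. The filter averaged all 20 arrays, so a probe set dim in unaffected skin could pass it through high injured arrays. In 49 of the 51 both wax-stripped cKO arrays exceeded all 8 unaffected arrays, which was true of 12.3% of all probe sets. In 31 of the 51 both cKO arrays lay within the range of the 8 injured arrays, near the 58.5% of all probe sets, in 12 both lay below all injured arrays (7.99%), and in 0 both lay above them (8.02%). For the WT arrays the corresponding number within the injured range was 1 of 51 (52.3%). The wax arrays placed here are also those that chose the 51. Their positions are thus partly fixed by the choice and are a description.

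Wax-stripped WT skin did not have a single pattern over these 51. In 23 both WT arrays lay within the range of the 8 unaffected arrays (51.9% of all probe sets did so). In 17 both WT arrays exceeded all unaffected arrays (12.8% of all probe sets), and in 15 of these they also stayed below all injured ones (2.17%). In 7 both WT arrays lay below all 16 arrays of the imiquimod experiment, unaffected skin included, which was true of 2.03% of all probe sets. The 51 were chosen for WT signal below cKO signal in these same wax arrays, so these counts are partly fixed by the choice. Some of the 7 also carry IDs close to each other, so they need not be separate instances. Of the 7, 2 examples were picked after their values were seen. The first read 366 and 367 in WT and 1468 and 1417 in cKO skin, with unaffected arrays between 661 and 1099 and injured arrays between 1207 and 2469. The second read 869 and 1019 in WT and 6361 and 5271 in cKO skin, with unaffected arrays between 2356 and 3604. In the first, the WT level differed from the mean of unaffected skin by -1.30 and the cKO level by 0.63 on the log2 scale. The wax and imiquimod experiments differ in treatment and handling, and for part of the arrays in sex, which cannot be told apart in a comparison of levels across them.

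The position of wax-stripped skin between unaffected and injured skin was then expressed in percent, on the log2 scale, from the mean of the 8 unaffected arrays (0%) to the mean of the 8 injured ones. Among all probe sets tested, 584 were at least 2-fold higher in injured than in unaffected skin by these means. The scale mixes injury with sex. In the 5 probe sets that part the sexes, the 8 injured arrays lay on the female side and the wax arrays on the male side. The unaffected arrays are of both labelled sexes. At least 1 of these 5 is among the 584, at -124% in WT and -119% in cKO skin. The part of sex in the positions was not tested. Over the 584, the median position was 52.8% in wax-stripped WT skin and 74.3% in cKO skin, and 477 lay further along in cKO. The median log2 genotype difference after wax was 0.22 over the 584 and 0.01 over all probe sets tested. By array the medians were 52.1% and 53.3% in WT and 78.4% and 70.7% in cKO skin, so the genotypes did not overlap and the cKO arrays differed more from each other. The 44 rises among them had a median of 14.3% in WT and 80.9% in cKO skin. These 44 were chosen for their genotype difference, and their positions are a description. All 44 are counted in the 477, so that part of the count was fixed by the choice. The 780 probe sets at least 2-fold lower in injured skin had a median of 39.3% of the way down in WT and 55.2% in cKO skin. By array the medians were 40.0% and 38.4% in WT and 49.7% and 60.6% in cKO skin. The cKO array that was further along for the raised probe sets was thus less far along here.

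**Figure D3:**
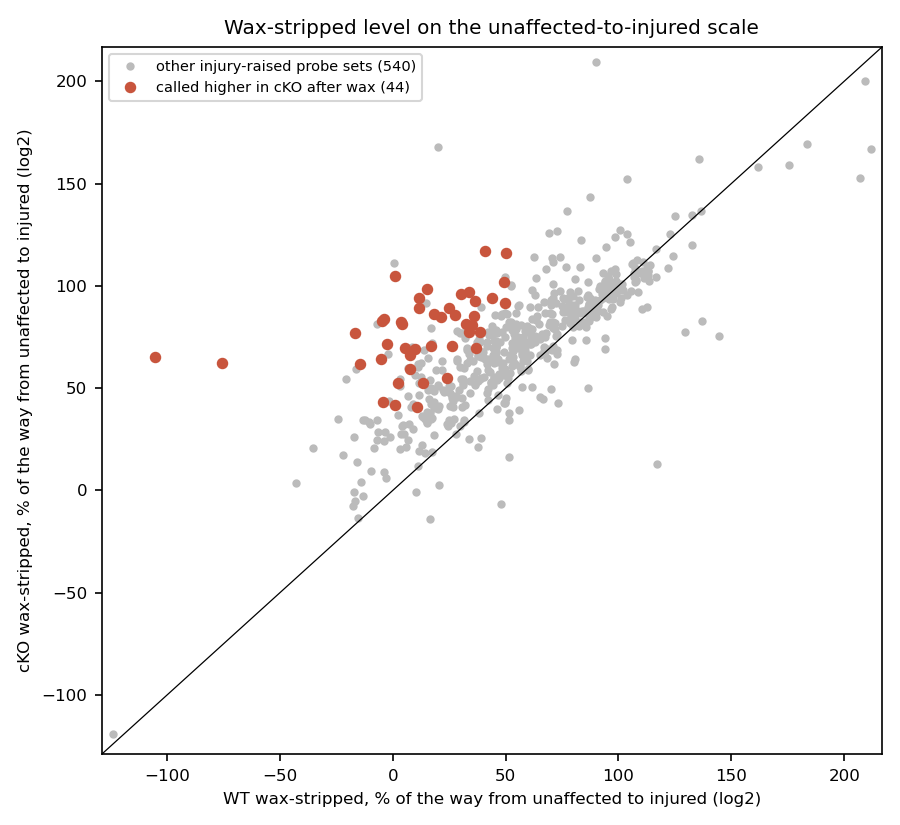
Position of wax-stripped WT (horizontal) and cKO skin (vertical) in percent of the log2 distance from unaffected to injured skin, for the 584 probe sets raised at least 2-fold in injured skin, with the line of equality. Most points lie above the line (477 of 584); the 44 called higher in cKO after wax (red) have WT positions around a median of 14.3%.

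The falls were fewer, smaller and of mixed form. The largest, in 10497912, read 1632 and 1278 in WT and 174 and 169 in cKO skin, 8.47 times lower by the means (log2 difference -2.96 ± 0.49, limma adjusted p = 0.0174). The level varied between replicates elsewhere: the 2 unaffected WT recovery arrays read 2234 and 525, while all imiquimod day 4 and injured recovery arrays lay between 95.6 and 191. The wax-stripped cKO arrays thus had the level of most of the series, and the WT arrays, with unaffected WT recovery skin, stood out. This call was lost when any 1 of the 4 wax arrays was left out (limma adjusted p from 0.107 to 0.174).

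The second largest fall, in 10358573, was the only fall called in all 4 fits that left out a wax array. It read 739 and 681 in WT and 155 and 137 in cKO skin (log2 difference -2.16 ± 0.23, limma adjusted p = 0.00041). Its WT arrays after wax were the highest of the 20. The probe set was lower in cKO in the other conditions too, by a log2 difference of -1.40 in injured recovery skin (limma adjusted p = 0.00956) and by -0.49, -0.46 and -1.19 in unaffected imiquimod, injured imiquimod and unaffected recovery skin, where the test was not passed.

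The third largest fall read 559 and 770 in WT and 182 and 169 in cKO skin, and the fourth read 345 and 577 in WT and 154 and 106 in cKO skin. The log2 differences were -1.81 ± 0.26 and -1.68 ± 0.25 (limma SE, adjusted p = 0.0078 and 0.00966). In the fourth the WT wax arrays were higher than all 16 arrays of the imiquimod experiment, which ranged from 47.7 to 113, with 1 wax-stripped cKO array inside that range and 1 above it. The fifth read 405 and 449 in WT and 159 and 158 in cKO skin; WT skin after wax was here within the range of unaffected arrays, and cKO skin within that of injured arrays.

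The sixth, the seventh, the ninth and the tenth largest falls were nearly the same measurement. Their log2 values correlated pairwise over the 20 arrays at r between 0.998 and 0.9999, so they are not 4 independent probe sets. The sixth, which stands for them, read 866 and 901 in WT and 427 and 393 in cKO skin, a log2 difference of -1.08 ± 0.17 (limma adjusted p = 0.0156). That call was lost when any 1 of the 4 wax arrays was left out (limma adjusted p from 0.112 to 0.189) and with the replicate number as a block (limma adjusted p = 0.115). All 4 were called lower in cKO in injured imiquimod and in injured recovery skin as well. For the sixth, the log2 differences there were -1.03 and -1.27 (limma adjusted p = 0.0399 and 0.00274). Of the 20 falls, 12 were called lower by imiquimod in WT skin, where 5265 of the 26310 probe sets tested were, and 8 of the 12 by at least 2-fold (5.28%). Those 4 nearly identical probe sets were called higher by imiquimod in WT skin (16.1% of all probe sets). In cKO skin 12 falls were called lower by imiquimod, where 4875 of the 26310 probe sets tested were, and 0 were called higher (17.7% of all probe sets).

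Called probe sets also lay near each other in the deposited table. Of the 51 rises, 19 had another rise within 20 rows, in 5 runs of which the longest held 8, while 4.39% of the other probe sets tested lay within 20 rows of a rise. Among the falls 3 of 20 did, all in 1 run, against 2.24% of the other probe sets. Among the rises, 2 pairs correlated over the arrays above 0.99, so the 51 are not all independent either.

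The genotype difference of wax-stripped skin was next set against that of the other 4 conditions, whose arrays are separate. In unaffected imiquimod and unaffected recovery skin 0 of the 51 rises and 0 of the 20 falls were called by limma. Of all probe sets, the test called 2 (0.00760%) and 0 there (2555, or 9.71%, and 800, or 3.04%, at an unadjusted p under 0.05). With so few calls in all, the lack of called rises and falls does not show that the genotypes were alike there. By sign, 31 of the 51 rises had a positive log2 difference in unaffected imiquimod skin and 20 a negative one (range -0.57 to 1.61). For unaffected recovery skin the split was 38 to 13 (range -0.31 to 1.26). Of the 26310 probe sets tested, 12680 were positive in unaffected imiquimod skin and 13365 in unaffected recovery skin. In injured imiquimod skin 6 of the 51 were called higher in cKO and 0 lower (background 0.0760% higher), and 4 of the 20 falls were called lower (background 0.0608%). Those 4 falls are the nearly identical ones described above, so they are not 4 independent calls. In injured recovery skin 14 of the 51 were called higher and 2 lower (background 0.722% and 0.277%), and 10 of the 20 falls were called lower. The same 4 nearly identical falls are among these 10. The median log2 genotype difference of the 51 rises was 1.90 after wax, 0.54 in injured recovery skin, 0.09 in injured imiquimod skin, and 0.18 and 0.19 in unaffected imiquimod and recovery skin, against 0.00 to 0.02 in size over all probe sets. For the 20 falls it was -0.63 in injured recovery skin and between -0.19 and -0.26 in the other conditions. The injured recovery arrays are the ones that did not follow their labelled sex, and its part in these counts was not tested.

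**Figure D4:**
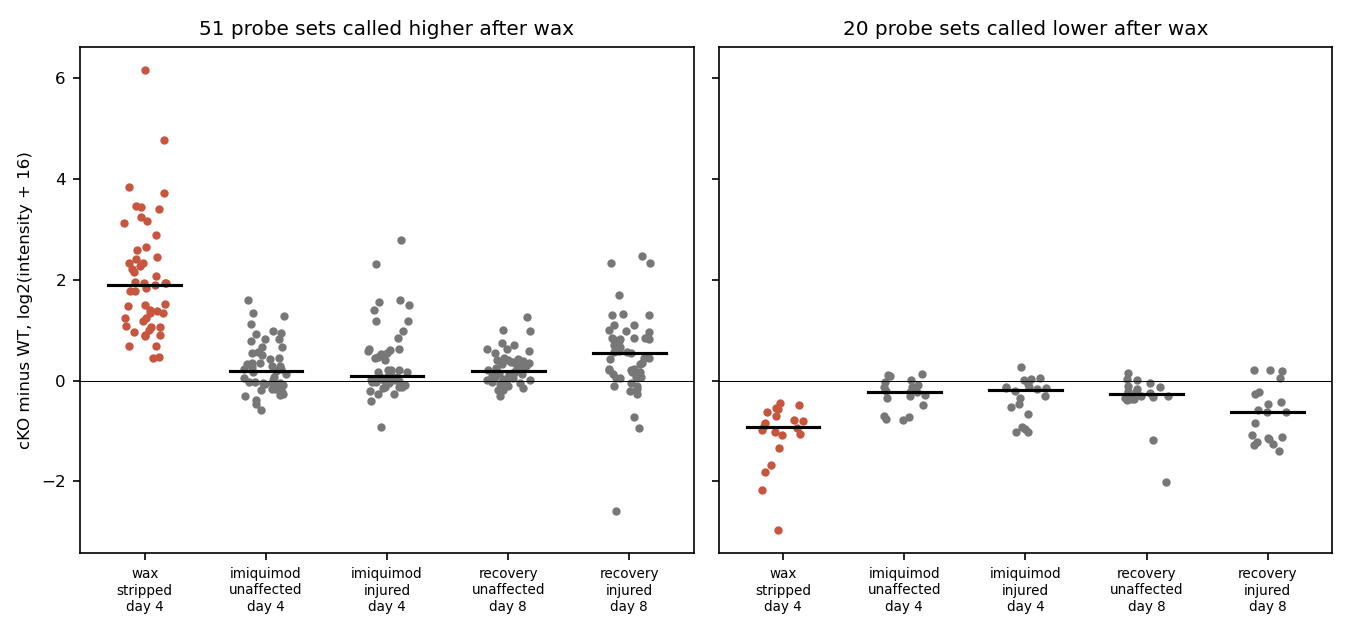
Difference cKO minus WT on the log2(intensity + 16) scale in 5 conditions, for the 51 probe sets called higher (left) and the 20 called lower (right) after wax; each point is a probe set, lines are medians. The wax column (red) chose the probe sets; in the other columns (grey) the medians of the rises lie between 0.09 and 0.54.

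A direct test asked which genotype differences after wax departed from the mean genotype difference of the other 4 conditions. It called 24 probe sets (0.0912%), 22 more positive and 2 more negative after wax. The 22 are all among the 51 rises, which is partly fixed by the wax arrays that both tests share, and their difference of differences ran from 0.80 to 5.67 on the log2 scale with a median of 2.29. Among the 20 falls 1 was called. Against unaffected skin alone 18 probe sets were called (0.0684%), all of them rises, and against injured skin alone 22 (0.0836%), of which 16 were rises and 1 was a fall. The largest values were 5.67 and 4.59, in the probe sets with the largest and second largest rise (limma adjusted p = 0.000179 and 9.6e-07). Among those called the third value was 3.16 (limma adjusted p = 6.65e-05), in a rise whose genotypes were ordered the other way in injured recovery skin: its log2 difference was 2.45 after wax and -2.59 there. The eighth largest rise, by contrast, had a difference of differences of 1.91 that was not called (limma adjusted p = 0.14), and the second largest fall one of -1.28 (limma adjusted p = 0.137).

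Over all probe sets, 1084 (4.12%) were lower and 1728 (6.57%) higher in cKO in all 5 conditions. Only 2 were lower by at least 1 on the log2 scale in every condition and 0 higher by as much; these 2 were singled out after their values were seen. The first read 2866 and 3349 in WT and 500.1 and 1527 in cKO skin after wax, and the second 1490 and 1611 in WT and 275 and 739 in cKO skin. Neither was called after wax (log2 differences -1.80 ± 1.04 and -1.74 ± 0.88, limma adjusted p = 0.823 and 0.757). WT arrays were alike and cKO arrays far apart in both. For the first, the log2 differences were -5.18 and -5.80 in unaffected and injured imiquimod skin and -2.22 and -2.23 in recovery skin, and none was called by limma (lowest adjusted p = 0.0531, in injured imiquimod skin).

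The precision of the wax comparison is set by its 4 arrays. The WT replicates correlated at 0.992 and the cKO replicates at 0.987 across probe sets, and arrays of different genotype at 0.982 to 0.986. In 37 probe sets the WT replicates were at least 2-fold apart, and in 169 the cKO replicates were, against 101 probe sets with a genotype mean at least 2-fold higher in cKO and 27 at least 2-fold lower. The WT and cKO arrays did not overlap in 5336 probe sets with cKO higher (20.3%) and 5573 with cKO lower (21.2%), so that lack of overlap alone does not mark a called probe set. The differences between cKO and WT computed from 2 separate pairs of arrays correlated across probe sets at r = 0.23 when replicates of the same number were paired, and at r = 0.45 when the numbers were crossed. By rank (Spearman rho) these correlations were lower, at 0.07 and 0.33. With 2 arrays per genotype an exact two-sided permutation test over these samples alone cannot go below p = 0.333, and the limma test uses the spread of all 10 groups.

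Each wax array was left out in turn, with the remaining array of that genotype assumed to vary like the other groups. Without WT replicate 1 there were 32 rises and 4 falls, and 13 differences from the other conditions in place of 24. Leaving out the second WT array gave 27, 1 and 10, leaving out the first cKO array 26, 8 and 13, and leaving out the second cKO array 56, 3 and 18. By probe set, 24 of the 51 rises were called in all 4 of these fits and 15 in 0, while 1 of the 20 falls, the second largest, was called in all 4 and 15 in 0. The 24 had log2 differences from 0.90 to 6.17, and 19 of them were also called in the test against the other conditions.

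**Figure D5:**
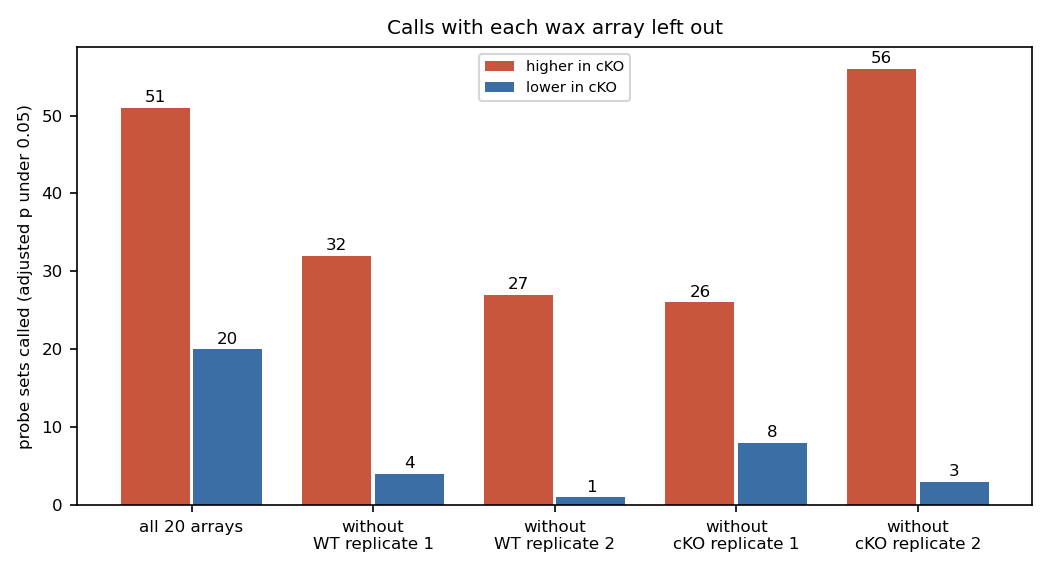
Number of probe sets called higher (red) and lower (blue) in cKO after wax in the fit on all 20 arrays and without each wax array. Rises numbered 26 to 56 without an array, from 51; falls dropped from 20 to between 1 and 8.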

How the data were processed

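Epidermis was separated with dispase, and biotinylated cRNA was hybridised to Gene ST arrays of Affymetrix, per the labels' protocols. Each deposited value is the intensity of a probe set, linear in scale. Per the submitters' processing notes the authors used PLIER, a probe-level summary, and Affymetrix Expression Console; version, scaling and genome build: not given in the sources used here. Precision is limited by the number of arrays. Labels gave each array's group, sex and day. Members, lists and tests were chosen with earlier results of these data known.

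Of 35556 probe sets, 476 repeats of identical values were removed and those under the 25th percentile of mean log2(intensity + 16) were left out, which left 26310. A fold change on this scale understates changes of dim probe sets. limma 3.58.1 (R 4.3.3) was fitted as group means over 20 arrays (10 residual degrees of freedom), with Benjamini-Hochberg adjustment per contrast at 0.05, and tested on simulated data.

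Names were to be used only if ribosomal labels lay above percentile 80, olfactory labels below 50 and same-symbol correlations 0.2 above random. This was not met, so gene lists, markers and sequences were not used; instead IDs, as entries of the table, are printed for the 2 largest rises and falls called without overlap, and others are described by rank. Replicate numbers did not pair the wax samples: same-numbered deviations correlated at -0.26.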

Additional observations from a re-analysis of the deposited data

Results flagged for a closer look

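The genotype difference after wax differed from the mean of the other 4 conditions in 24 probe sets, by the limma contrast of the differences. Among the probe sets described above by their values, the contrast was 5.67 for the largest rise and 4.59 for the second largest on the log2 scale. It was 2.88 for the fifth, 2.96 for the sixth and 2.42 for the seventh largest rise. Against unaffected skin alone the contrast of the fifth was 2.44, not called (limma adjusted p = 0.126). In unaffected imiquimod skin the fifth was higher in cKO by 1.61, not called (limma adjusted p = 0.213). The sixth was near the threshold (limma adjusted p = 0.0486) and was not called against any single condition (limma adjusted p from 0.101 to 0.302). The seventh also differed by genotype in injured recovery skin, by 2.33 (limma adjusted p = 0.00117). In injured imiquimod skin it differed by 1.51, not called (limma adjusted p = 0.0566). Against injured skin alone its contrast was 1.49, not called (limma adjusted p = 0.177).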

How the results depend on the processing

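Probe sets called were 51 rises, 20 falls and 24 differences from the other conditions. With eBayes trend and robust settings the rises became 80. The falls became 31 with a pseudocount of 64, 12 without the 4 injured recovery arrays and 13 with the replicate block, of which 6 were among the 20. With that block 53 rises and 22 differences were called, and with the wax numbers crossed, a setting chosen after seeing the data, 59 rises, 20 falls and 29 differences, of which 43, 8 and 18 were among those above. Without 1 wax array, rises ranged from 26 to 56, falls from 1 to 8 and differences from 10 to 18. Quantile normalization gave 54 rises and 27 falls, and the 4 wax arrays alone 60 and 23, of which 47 were among the 71. No filter gave 53 and 17, a filter at the 50th percentile 45 and 23, and a pseudocount of 1 gave 48 and 17. The 12 male-labelled arrays, added after seeing the data, gave 63 and 28, and without the injured recovery arrays among them 49 and 22, of which 47 were among the 71. The test against other conditions could not be fitted on the wax arrays alone. The cause of each shift was not tested. The 2 arrays per group limit all counts.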
